A study of Homo sapiens with 32 samples.

Results

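Human granulosa cells of the HGrC1 line, which is immortalized and not luteinized, were exposed to 0.1 µM perfluorooctane sulfonate (PFOS) for 6 weeks, and their mRNA was compared to that of vehicle-treated cells of the same age. The comparison holds 8 of the 32 libraries of the series, 4 exposed and 4 control, which were chosen by their labels alone. The control received 0.05% DMSO, the vehicle that all groups share, and fresh PFOS or vehicle was added at each passage. Labels give 100 nM estradiol as hormone in the medium of all groups, whereas the methods of the study give testosterone. Each replicate number stands for 1 frozen vial of this single cell line, whose flask was divided into the control and the cultures with 0.01, 0.1 and 1 µM PFOS, so the 4 replicates are separate cultures and not separate donors. The comparison asks which transcripts a low, sustained concentration of PFOS moves, with weight on well-counted genes that change by less than 2-fold.

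PFOS is a persistent fluorinated surfactant that binds to albumin and to fatty acid binding proteins. Granulosa cells surround the oocyte, convert androgens to estradiol and secrete inhibins and matrix. Chaperones of the HSP70 and HSP90 families fold newly made proteins, actin-binding proteins build stress fibers and adhesions, and the transcription factors SREBP1 and SREBP2 switch on the enzymes of lipid synthesis when sterols are low.

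The total count was 18123087 to 18314293 per control library and 17907057 to 17998837 per exposed library, and 14840 to 14915 and 14910 to 14962 genes had at least 1 count. Mitochondrially encoded transcripts took 4.80 to 5.04% of the counts in control and 5.52 to 6.71% in exposed libraries. Of 14 granulosa cell markers with values, 10 had a mean of at least 10 counts, among them GATA4 (78.0 TPM in the control) and WT1 (35.5 TPM), while CYP19A1 was at 0 TPM and FOXL2 at 0.725 TPM. The summed level of the granulosa markers was 171 to 177 TPM in control and 162 to 174 TPM in exposed libraries, and that of 5 epithelial markers, almost entirely keratins, was 8065 to 8519 and 7491 to 7994 TPM. In control and exposed libraries, KRT8 averaged 3559 and 3259 TPM and KRT18 2765 and 2503 TPM, while KRT19 rose from 1893 to 2048 TPM. Hepatocyte markers summed to 10.5 to 17.7 and 22.6 to 28.4 TPM, leukocyte markers to 21.6 to 24.0 and 24.4 to 30.6 TPM (mostly CD68), and stromal markers to 1172 to 1273 and 1277 to 1373 TPM. In bulk RNA, fewer cells of a type and less RNA per cell cannot be told apart.

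At 0.1 µM PFOS, many abundant transcripts differed from the control by small amounts, and how many did depended on single vials, as given below. Of 12836 genes tested, 544 (4.24%) had an adjusted p at or under 0.05 and are called below, 199 (1.55%) higher and 345 (2.69%) lower than in the control (edgeR's quasi-likelihood test on 16 libraries, Benjamini-Hochberg adjustment). Only 11 of them (0.0857%) changed by at least 2-fold, 8 higher and 3 lower, and this count was 1 and 3 with DESeq2 on 8 and 16 libraries, 4 with edgeR on 32 libraries, 2 among genes with at least 10 counts in every library, and 5 and 6 without replicates 3 and 1. Of 10566 well-counted genes, here genes whose count averaged 100 or more over the 8 libraries, 510 (4.83%) were called with a change under 2-fold, 176 (1.67%) higher and 334 (3.16%) lower. The higher genes had a median rise of 15.8% and the lower genes a median decrease of 11.5%, and the smallest changes called were 7.60% and −6.88%. Only 6 of the 176 and 6 of the 334 had a log2 fold change of 0.5 or more in size. When a change beyond 1.2-fold was required of the test itself, 5 of all genes tested passed (4 higher and 1 lower), and beyond 1.1-fold, 14. Beyond 1.5-fold, 4 higher and 0 lower genes passed. The 4 called genes beyond 2 on the log2 scale were ALB, AFP, AHSG and APOB, described below, with 0 or 1 counts per control library. Among the 176, the largest log2 fold change was 0.68. Few if any of the small changes called thus passed a minimum of 1.2-fold.

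**Figure D1:**
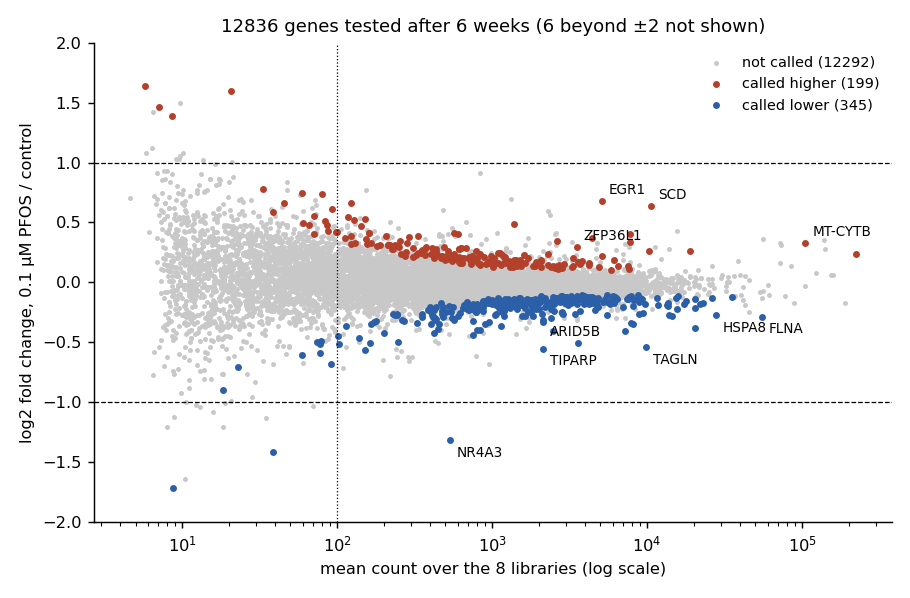
Mean count over the 8 libraries (log axis) against the log2 fold change of 0.1 µM PFOS to control for each gene tested, with genes called higher in red, called lower in blue and the others in grey. The dotted line marks 100 counts and the dashed lines a 2-fold change: nearly all calls lie to the right of the first and between the second, and 6 genes beyond 2 on the log2 scale are not drawn.

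The depth of a gene set how small a change could be called. Among genes with a mean of 1000 counts or more, 319 of 4077 were called (7.82%), with a median standard error of 0.04 and a median change of 0.16 on the log2 scale. Among genes with 100 to 1000 counts, 2.96% of 6489 were called, with a standard error of 0.06 and a median change of 0.24. With 10 to 100 counts, 1.34% of 2095 genes passed, with a median change of 0.60. The 2 directions differed in abundance: in the class of 1000 counts or more, 76 genes were higher and 243 lower, whereas in the class of 100 to 1000 counts 100 were higher and 92 lower. The excess of lower calls depended on the scaling. In the fit scaled to the upper quartile, given below, higher and lower calls were nearly equal in number over all classes. Median levels in the control were 68.5 TPM for the well-counted genes called lower, 16.9 TPM for those called higher and 22.0 TPM for all well-counted genes.

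Genes called lower also had shorter and more GC-rich transcripts. Their longest coding transcript had a median GC content of 54.8% and a median length of 2959 bases, compared to 45.3% and 4377 bases for genes called higher and 48.0% and 3650 bases for all well-counted genes. Of the 2629 genes with the highest GC content, 5.14% were called lower and 1.07% higher, and of the 2629 with the lowest, 0.951% and 2.28%. Control replicate 4 had the steepest relation to GC content, at 0.06 on the log2 scale per 10 percentage points above the 8-library mean, while the other 7 libraries lay between −0.03 and 0.01. The part of GC content in the calls was not tested, and without control replicate 4 there were 83 genes called higher and 121 lower.

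The number of calls depended on single vials. Without replicate 3 in all 4 groups, 22 genes were called, of which 17 were among the 510. Without replicate 1 there were 128 calls, without replicate 4 there were 77, and without replicate 2 there were 570. Leaving out 1 of the 8 libraries gave 122 calls (without control replicate 3) to 617 (without control replicate 2), with 135, 195 and 158 calls without exposed replicates 1, 3 and 4. With the 12-week libraries in the same fit, which share their estimate of spread, 49 genes were called. The fit scaled to the upper quartile instead of TMM gave 229 higher and 228 lower calls. In 482 of the 544 called genes (88.6%) the 4 exposed libraries did not overlap with the 4 control libraries, which was the case for 12.3% of all genes tested. The calls were made from these same libraries, so this share is no separate support for them. Of the 510 genes, 73 were called in each of the 8 fits that left out 1 library and 12 in each of the 4 fits that left out a replicate from all groups, among them HSPA8, PPIF, HEYL, MAP2K3, CSRNP1, ZC3H12A, ARID5B, RELT and CDC34 of the lower genes, and ZFP36L1 and MT-CYTB of the higher.

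**Figure D2:**
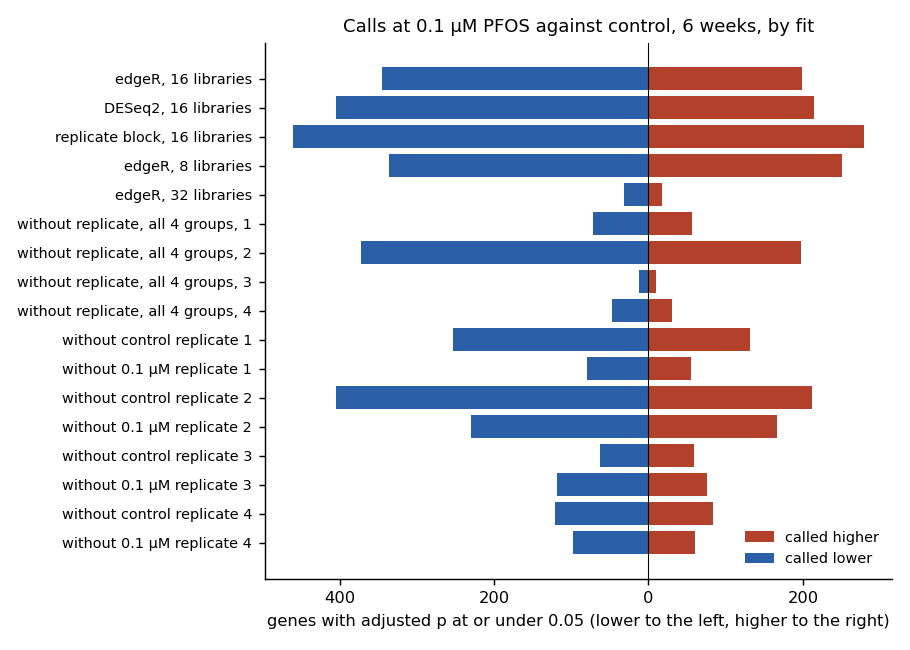
Number of genes called lower (blue, to the left) and higher (red, to the right) in each fit, with all 16 libraries of 6 weeks at the top. The bars shrink from 544 calls to 49 with 32 libraries and to 22 without replicate 3, and stay near the top bar without replicate 2.

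Cytosolic chaperones formed the gene list with the largest share of lower calls. Of 20 tested members, 10 were called lower and 0 higher (50%, compared to 4.24% of all genes), with a median log2 fold change of −0.14 against 0.00 over all genes tested. HSPA8 (gene ID 3312, chromosome 11, 123057489 to 123062462 on GRCh38.p14) encodes the constitutive HSP70 that folds nascent proteins and uncoats clathrin. Its 4 control libraries were at 1642, 1664, 1676 and 1713 CPM (counts scaled to the TMM-adjusted library size) and its exposed libraries at 1346, 1423, 1373 and 1393 CPM. The groups were separated by more than the range within either of them. The log2 fold change was −0.27 (standard error (SE) 0.04, adjusted p = 0.000188 by edgeR, exact two-sided permutation p = 0.0286, the smallest that 4 against 4 allow).

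DNAJB1 (chromosome 19, 14514769 to 14560391), the HSP40 that drives the ATPase of HSP70, was at 146, 148, 158 and 151 CPM in control and 122, 129, 126 and 134 CPM in exposed libraries. No exposed library reached the lowest control library, and the log2 fold change was −0.24 (SE 0.04, adjusted p = 0.00054 by edgeR). HSPH1, an HSP110 that exchanges the nucleotide of HSP70, fell from 168 ± 8.29 to 142 ± 7.19 CPM (SD, n = 4), a decrease of 0.24 on the log2 scale. HSP90AB1, the constitutive HSP90, fell from 1340 ± 56.2 to 1187 ± 33.7 CPM, and its activator AHSA1 had a log2 fold change of −0.17. The inducible HSPA1A and HSPA1B are near-identical copies whose reads the authors' counting could divide, so each value is uncertain; HSPA1A was at 362 ± 9.21 and 329 ± 5.44 CPM and HSPA1B at 305 ± 5.81 and 272 ± 5.92 CPM (SD, n = 4). BAG3, a nucleotide exchange factor that links HSP70 to autophagy, HSPB8, its small heat shock partner, and DNAJA1, a further HSP40, were also called lower, with log2 fold changes of −0.16, −0.20 and −0.14. The number of chaperones called was 5, 10, 1 and 3 without replicates 1, 2, 3 and 4, and 3 to 6 without control replicates 3 and 4 or exposed replicates 1 and 3, each left out alone, and 2 with 32 libraries.

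Heat shock genes are textbook targets of HSF1, which binds inverted repeats of GAA in promoters, and these promoters are shown because the chaperones moved together. The letters TTCNNGAA and GAANNTTC, each its own reverse complement, were searched in the 250 bases before the start of each gene (RefSeq, GRCh38.p14). They were found in 7 of 18 chaperone promoters and in 5 of the 10 called ones, compared to 11.7% of 27305 promoters. Capitals mark each match, HSPA8 with matches that overlap; HSPA8 is on the minus strand, at chr11:123062149-123062386, and the others are on the plus strand, HSPA1A at chr6:31815407-31815474, HSPB8 at chr12:119178813-119178880 and DNAJA1 at chr9:33025045-33025112.
HSPA8: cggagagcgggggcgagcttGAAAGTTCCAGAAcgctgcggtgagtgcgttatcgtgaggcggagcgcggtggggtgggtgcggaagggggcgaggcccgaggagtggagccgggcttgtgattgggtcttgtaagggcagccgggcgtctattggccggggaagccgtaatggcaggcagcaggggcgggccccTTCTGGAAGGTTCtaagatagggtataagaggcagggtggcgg
HSPA1A: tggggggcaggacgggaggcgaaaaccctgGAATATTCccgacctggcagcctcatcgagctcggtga
HSPB8: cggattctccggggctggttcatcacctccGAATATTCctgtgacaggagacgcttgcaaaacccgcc
DNAJA1: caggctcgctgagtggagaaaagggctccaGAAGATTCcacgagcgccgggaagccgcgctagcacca
A match describes letters and not binding, and the promoters of DNAJB1, HSPH1, HSP90AB1, BAG3 and AHSA1 held no match in this window.

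Fewer calls were made among the chaperones of the endoplasmic reticulum. Of 22 tested members of this list, 3 were called lower and 1 higher (18.2%, compared to 4.24% of all genes), with a median of −0.04. HSPA5, the HSP70 of this compartment, and HERPUD1, which aids the removal of misfolded proteins, changed by −0.13 and −0.21 on the log2 scale (SE 0.03 and 0.04, edgeR adjusted p = 0.017 and 0.0058). XBP1, the transcription factor of the unfolded protein response, was at −0.12, and ERN1, the kinase that splices its mRNA, rose by 0.27. Of 28 genes that ATF4 is known to induce upon amino acid shortage, 4 were called lower and 0 higher (14.3%), with a median of −0.07. SLC7A5 and SLC3A2 encode the 2 chains of the LAT1 amino acid transporter. SLC7A5 was at 239, 195, 248 and 250 CPM in control and 154, 164, 167 and 169 CPM in exposed libraries, a log2 fold change of −0.51 (SE 0.09, adjusted p = 0.0131 by edgeR). SLC3A2 was at 207, 195, 218 and 208 CPM and 177, 172, 169 and 171 CPM, a log2 fold change of −0.26 (SE 0.04, adjusted p = 0.00174 by edgeR). In both genes the exposed libraries lay closer together than the controls and below all of them. GARS1, which charges the glycine tRNA, and SHMT2, the mitochondrial serine hydroxymethyltransferase, fell by 0.15 and 0.12 on the log2 scale. Without replicates 1, 2, 3 and 4, the ATF4 list had 1, 5, 0 and 1 called members and the list of the endoplasmic reticulum 1, 4, 0 and 0, and with 32 libraries they had 2 and 1.

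Genes of the actin cytoskeleton and focal adhesions were lower as well. Of 34 tested members, 11 were called lower and 0 higher (32.4%, compared to 4.24% of all genes), with a median of −0.12. FLNA (chromosome X, 154348531 to 154374634), which crosslinks actin filaments, was at 3080, 3144, 3425 and 3649 CPM in control and 2512, 2917, 2822 and 2655 CPM in exposed libraries. The highest exposed library lay just below the lowest control, and the log2 fold change was −0.29 (SE 0.06, adjusted p = 0.0194 by edgeR). TAGLN (chromosome 11, 117199294 to 117207465), an actin-binding protein of contractile cells, was at 630, 527, 760 and 656 CPM in control and 413, 502, 452 and 400 CPM in exposed libraries. Control replicate 2 was close to the exposed libraries, and the log2 fold change was −0.54 (SE 0.14, adjusted p = 0.0474 by edgeR).

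ACTN1 and ACTN4, the actinins that bundle filaments, were at −0.28 and −0.18 on the log2 scale, the filamin FLNC at −0.27, and the myosin light chains MYL9 and MYL12A at −0.26 and −0.13. TPM1, a tropomyosin, PDLIM7, an adaptor of actin bundles, and ARPC2, a subunit of the ARP2/3 complex, were at −0.20, −0.24 and −0.12. With the vial as replicate block 6 of the 34 members were called, since 6 calls were lost and TPM4, a further tropomyosin, was gained (adjusted p = 0.0482 by edgeR), and TAGLN, TPM1, ACTN1, FLNC and PDLIM7 had edgeR adjusted p of 0.0613 to 0.0779. The number was 4, 14, 0 and 0 without replicates 1, 2, 3 and 4, 0 without exposed replicate 1 or control replicate 3, 1 without either library of replicate 4 or exposed replicate 3, and 3 without the filter on low counts. The CArG box, to which SRF binds, was found in the 250 bases before the start of 4 of 30 promoters of the list and of 1 of the 8 called genes with a promoter, compared to 1.14% of all promoters. Searches on both strands found the AHR core TNGCGTG in 4 of 10 promoters of the AHR list, compared to 4.53% of all promoters. The sterol element TCANNCCAC was found in 2 of 18 promoters of cholesterol synthesis and 3 of 15 of fatty acid synthesis (3.17% of all). The 2, 2 and 4 called genes with a promoter in these lists held 0 matches, too few promoters to read an absence from. FLNA holds 1 CArG box (chrX:154374689-154374758, minus strand), and 2 stand before EGR1 (chr5:138465344-138465435, plus strand), a transcription factor that moved the other way and is described below. Both windows are shown with the boxes in capitals because the 2 genes share the element and differ in direction.
FLNA: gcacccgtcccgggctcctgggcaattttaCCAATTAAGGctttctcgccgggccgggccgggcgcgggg
EGR1: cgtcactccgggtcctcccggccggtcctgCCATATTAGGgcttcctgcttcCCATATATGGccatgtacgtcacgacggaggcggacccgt

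Of 28 TGF-beta and SMAD response genes, 8 were called lower and 1 higher (32.1%, compared to 4.24% of all genes), with a median of −0.14. BMP2, a ligand of the family, was at 5.16 ± 0.354 CPM in control and 3.43 ± 0.646 CPM in exposed libraries (SD, n = 4), a log2 fold change of −0.59 (SE 0.16, adjusted p = 0.0336 by edgeR). FSTL3, which binds and blocks activins, was at 488, 459, 520 and 539 CPM in control and 378, 417, 385 and 392 CPM in exposed libraries, a log2 fold change of −0.35 (SE 0.07, adjusted p = 0.0206 by edgeR). No exposed library overlapped with the control. The inhibitory SMAD7 was at −0.26, and ID2 and ID3, inhibitors of helix-loop-helix factors, were at −0.40 and −0.18. TAGLN and TPM1, given above, are in this list as well. CCN2, a matricellular growth factor, was the exception among the called members, at 514, 535, 503 and 508 CPM in control and 618, 566, 682 and 606 CPM in exposed libraries, a log2 fold change of 0.26 (SE 0.05, adjusted p = 0.0118 by edgeR). Without replicates 1, 2, 3 and 4, the list had 3, 9, 0 and 1 called members, and without control replicates 3 and 4 or exposed replicates 1, 3 and 4 it had 1, 3, 2, 2 and 4. Among 40 collagens and matrix proteins, 3 were called lower and 0 higher (7.5%, and 5 in all with the replicate block). The 3 were COL4A1 and COL4A2, the chains of basement membrane collagen, at −0.18 and −0.13, and COL6A1 at −0.20. INHBB, the beta B subunit of inhibin and activin, was the single call among 18 tested genes of granulosa cell identity (5.56%, compared to 4.24% of all genes). It was at 6.70 ± 1.00 and 4.69 ± 0.151 CPM (SD, n = 4), a log2 fold change of −0.51 (SE 0.13, adjusted p = 0.0305 by edgeR). The call was lost without replicates 1, 3 and 4 (edgeR adjusted p of 0.0591, 0.186 and 0.172) and with 32 libraries (0.127).

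Glycolytic genes were called in 1 direction: 6 of 23 were lower and 0 higher (26.1%, compared to 4.24% of all genes), with a median of −0.08. HK2 (chromosome 2, 74834127 to 74893359), the inducible hexokinase that starts the pathway, was at 62.4, 47.9, 57.3 and 43.0 CPM in control and 41.8, 36.5, 39.9 and 41.4 CPM in exposed libraries, a log2 fold change of −0.40 (SE 0.10, adjusted p = 0.0443 by edgeR). The lowest control library was within 2 CPM of the exposed group. PFKFB3, which makes the activator of phosphofructokinase, was at 46.0 ± 4.25 and 36.7 ± 1.65 CPM (SD, n = 4), a log2 fold change of −0.33 (SE 0.07, adjusted p = 0.0173 by edgeR). The glucose transporter SLC2A1, the hexokinase HK1, the phosphofructokinase PFKP and the isomerase GPI fell by 0.18, 0.15, 0.16 and 0.13 on the log2 scale. The list had 2, 5, 0 and 1 calls without replicates 1, 2, 3 and 4, and singly without control replicates 1 and 3 or exposed replicates 1, 2, 3 and 4 it had 3, 0, 1, 3, 3 and 0. Of the 20 hypoxia-inducible genes, 0 were called (edgeR; 5 with an unadjusted p under 0.05, 0 with DESeq2 on 16 libraries and 1 with the replicate block), and HIF1A itself was at 0.03 with a standard error of 0.09.

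Calls among lipid synthesis genes were in the other direction and few. Of 16 genes of fatty acid synthesis, 4 were called higher and 0 lower (25%, compared to 4.24% of all genes), with a median of 0.15. In 9 of the 16 the groups did not overlap and the exposed libraries were higher (5.63% of all genes were). SCD (chromosome 10, 100347233 to 100364826), the desaturase that makes oleate, was at 378, 514, 445 and 488 CPM in control and 683, 665, 741 and 753 CPM in exposed libraries. The gap between the groups was wider than the spread of the exposed libraries, and the log2 fold change was 0.64 (SE 0.15, adjusted p = 0.0396 by edgeR). SREBF1, which encodes SREBP1, was at 199, 219, 205 and 224 CPM in control and 273, 255, 296 and 273 CPM in exposed libraries, a log2 fold change of 0.37 (SE 0.08, adjusted p = 0.0281 by edgeR). FADS1, the delta-5 desaturase of polyunsaturated fatty acids, rose from 379 ± 23.3 to 480 ± 20.9 CPM and ACACA, the carboxylase that commits acetyl-CoA to synthesis, from 134 ± 4.48 to 146 ± 4.89 CPM (SD, n = 4).

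For cholesterol synthesis, 2 of 25 genes were called higher and 0 lower (8%, compared to 4.24% of all genes), while 24 of the 25 had a positive log2 fold change and the median was 0.17. MSMO1 (chromosome 4, 165327669 to 165343164), a sterol C4-methyl oxidase, was at 119, 136, 128 and 126 CPM in control and 157, 161, 161 and 170 CPM in exposed libraries, a log2 fold change of 0.35 (SE 0.07, adjusted p = 0.0124 by edgeR). STARD4, a sterol carrier, rose by 0.16. With the vial as replicate block, 9 of the 25 genes were called. HMGCS1, which makes a precursor of mevalonate, did not pass, with a log2 fold change of 0.40 and an edgeR adjusted p of 0.0642 (0.0292 with the replicate block). Without replicates 1, 2, 3 and 4, fatty acid synthesis had 0, 4, 0 and 0 called members and cholesterol synthesis 1, 3, 0 and 0. At fatty acid synthesis, 0 members were called without control replicate 1 or 3 or exposed replicate 1, 3 or 4, 1 without control replicate 4, and 2 without the filter on low counts.

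**Figure D3:**
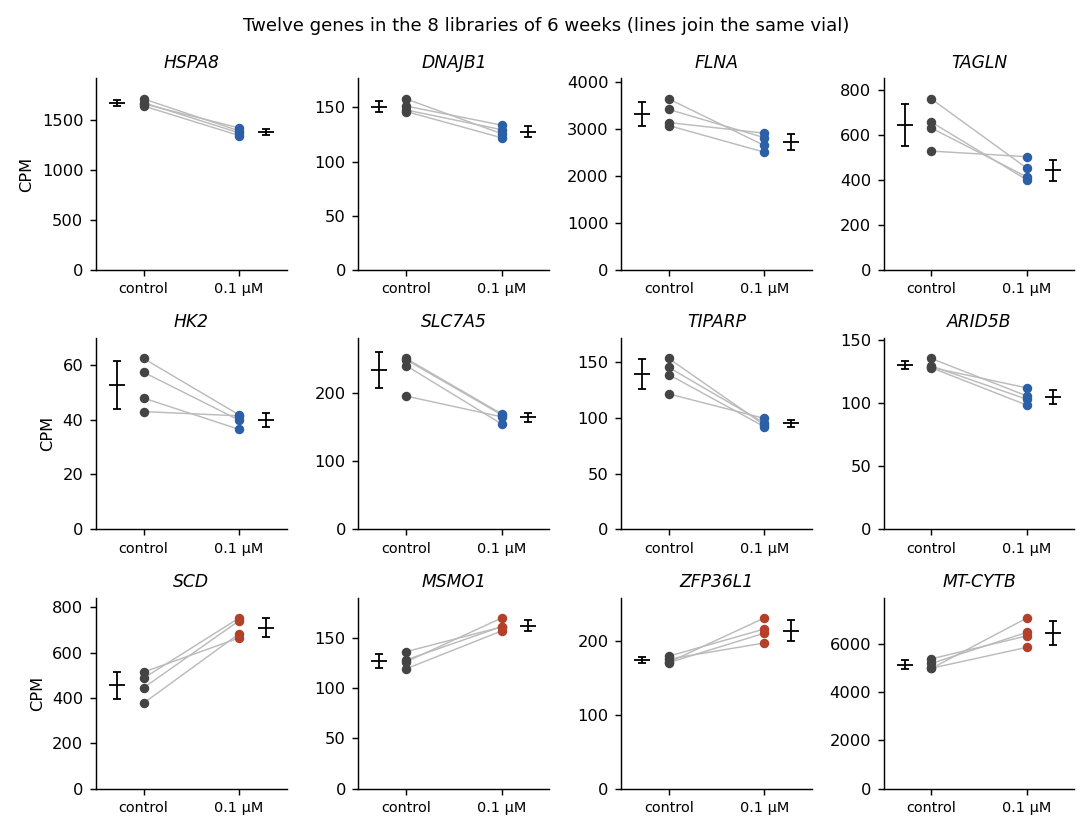
Level of 12 genes in CPM (vertical axes start at 0) in the 4 control and 4 exposed libraries, with grey lines joining libraries of the same vial and bars for the mean and SD of n = 4. In each of the 12 genes the 4 lines run in the same direction, down for the 8 genes in blue and up for the 4 genes in red.

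All 13 proteins encoded by the mitochondrial genome were tested. Of them, 3 were called higher and 0 lower (23.1%, compared to 4.24% of all genes), with a median of 0.31. MT-CYTB (mitochondrial genome, 14747 to 15887), the cytochrome b of complex III, was at 4987, 5374, 5183 and 4977 CPM in control and 5851, 6325, 6470 and 7062 CPM in exposed libraries, a log2 fold change of 0.33 (SE 0.06, adjusted p = 0.00453 by edgeR). MT-COX1, a catalytic subunit of complex IV, and MT-ND3, a subunit of complex I, rose by 0.23 and 0.41, with edgeR adjusted p of 0.0394 and 0.0448. Of the other 10 genes, 9 had a positive log2 fold change and MT-ND6, the gene encoded on the other strand, was at −0.78 with an edgeR adjusted p of 0.28. The list had 1 call without each of the 4 replicates and without the filter on low counts, 0 with 32 libraries, and 7 with DESeq2 on 16 libraries. The share of mitochondrial counts moved with these genes, as given above, and its part in the other calls was not tested. Nuclear genes for the respiratory chain had 0 calls among 75 (6 with an unadjusted p under 0.05, 0 with DESeq2 on 16 libraries, and 1 with the replicate block) and a median of −0.01. Cytosolic ribosomal proteins had 0 calls among 78 (edgeR; 6 with an unadjusted p under 0.05 and 1 with DESeq2 on 16 libraries) and a median of 0.00.

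Among aryl hydrocarbon receptor (AHR) genes, 3 of 12 were called lower and 0 higher (25%, compared to 4.24% of all genes), with a median of −0.20. The number called was 2, 2, 0 and 1 without replicates 1, 2, 3 and 4, 1 without control replicate 3 or exposed replicate 1, and 1 with 32 libraries. TIPARP (chromosome 3, 156674590 to 156706770), an AHR-induced mono-ADP-ribosyltransferase that represses the receptor, was at 153, 139, 145 and 121 CPM in control and 93.6, 92.1, 95.4 and 99.5 CPM in exposed libraries. The exposed libraries spanned less than 8 CPM and lay below each control, and the log2 fold change was −0.55 (SE 0.07, adjusted p = 0.00174 by edgeR). CYP1B1, a cytochrome P450 that hydroxylates estradiol, was at 489 ± 24.6 and 386 ± 16.6 CPM (SD, n = 4), a log2 fold change of −0.34 (SE 0.07, adjusted p = 0.0159 by edgeR). The quinone reductase NQO1 was at −0.25 and is an NRF2 target too. Of 23 NRF2 targets, 2 were called lower and 0 higher (8.7%, and 7 with the replicate block), the other being the peroxiredoxin PRDX1 at −0.14.

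Transcription factors of the immediate early response were called in both directions. Of 22, 1 was called higher and 3 lower (18.2%, compared to 4.24% of all genes), with a median of −0.01. EGR1 was at 266, 191, 222 and 187 CPM in control and 304, 290, 383 and 410 CPM in exposed libraries, a log2 fold change of 0.68 (SE 0.17, adjusted p = 0.0432 by edgeR). NR4A3, an orphan nuclear receptor and the only well-counted gene called with a change of 2-fold or more, was at 51.0, 43.1, 42.0 and 31.7 CPM and 13.5, 14.8, 16.1 and 22.9 CPM, a log2 fold change of −1.32 (SE 0.18, adjusted p = 0.00385 by edgeR). Both genes separated the groups, and both calls were lost without replicate 3, with edgeR adjusted p of 0.231 for EGR1 and 0.0994 for NR4A3. EGR1 lost its call without replicates 1 and 4 as well (0.086 and 0.265). KLF4 and IER5 were at −0.39 and −0.14. Among 15 circadian clock genes, the repressors PER1, CRY1 and NR1D1 were called lower at −0.28, −0.22 and −0.27, and 0 genes were called higher (20% called). The median of the clock list was −0.002, with 7 members higher and 8 lower. It had 1, 2, 0 and 0 calls without replicates 1, 2, 3 and 4, and 0 with 32 libraries.

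The well-counted genes with the lowest p and no overlap between the groups are given next. ARID5B (chromosome 10, 61901699 to 62096944), a chromatin-binding coactivator, was at 130, 128, 136 and 129 CPM in control and 103, 98.6, 106 and 112 CPM in exposed libraries, a log2 fold change of −0.31 (SE 0.04, adjusted p = 1.79e-05 by edgeR). HEYL, a repressor induced by NOTCH, averaged 48.1 ± 1.41 and 35.5 ± 2.42 CPM (SD, n = 4), a log2 fold change of −0.44 (SE 0.05, adjusted p = 3.83e-05 by edgeR). In both genes the control libraries lay within 10 CPM of each other and above each exposed library. ZC3H12A, an RNase that degrades cytokine mRNAs, MAP2K3, a kinase that activates p38, and CDC34, a ubiquitin-conjugating enzyme, were at −0.33, −0.35 and −0.25. PPIF, the cyclophilin of the mitochondrial permeability pore, was at 440, 427, 455 and 477 CPM and 306, 362, 355 and 338 CPM, a log2 fold change of −0.40 (SE 0.06, adjusted p = 0.000801 by edgeR). CSRNP1, a nuclear protein induced by AXIN1, was at −0.23, and HSPA8, DNAJB1, SLC3A2 and TIPARP, given above, were among these lower genes too.

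ZFP36L1 (chromosome 14, 68787655 to 68796243), which binds AU-rich elements and speeds mRNA decay, led the higher genes. It was at 176, 171, 179 and 171 CPM in control and 197, 211, 216 and 231 CPM in exposed libraries, a log2 fold change of 0.29 (SE 0.04, adjusted p = 0.000687 by edgeR). PML, the scaffold of nuclear bodies, was at 78.9, 79.3, 78.1 and 76.7 CPM and 89.8, 87.2, 89.4 and 90.0 CPM, a log2 fold change of 0.19 (SE 0.03, adjusted p = 0.00433 by edgeR). In PML a rise of 13.9% stood clear of a spread of less than 3 CPM within each group. MDK, a heparin-binding growth factor, CBLB and TRIM56, both ubiquitin ligases, ENC1, a kelch protein that binds actin, THRA, a thyroid hormone receptor, and PDP2, a phosphatase that activates pyruvate dehydrogenase, were at 0.29, 0.25, 0.25, 0.23, 0.21 and 0.55. PNISR, a serine- and arginine-rich nuclear protein, GPATCH8 and WSB1, a subunit of a ubiquitin ligase, were at 0.19, 0.19 and 0.23, and MT-CYTB, given above, is the twelfth.

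By abundance per length, the 4 highest genes called lower were KRT18 (2765 TPM in the control), NME2 (1749 TPM), MYL12A (1496 TPM) and KRT7 (1449 TPM). KRT7, a keratin of simple epithelia, averaged 1273 ± 65.6 CPM in control and 980 ± 68.1 CPM in exposed libraries (SD, n = 4), with no overlap, a log2 fold change of −0.38 (SE 0.08, adjusted p = 0.0255 by edgeR), and its partner KRT18 fell by 0.12. Among genes called higher, MT-COX1 (13777 TPM), MT-CYTB (9097 TPM), MT-ND3 (6647 TPM) and DUSP1 (849 TPM) were highest. DUSP1, the phosphatase that ends MAP kinase signals, was at 1058, 912, 944 and 921 CPM and 1041, 1140, 1173 and 1241 CPM. Control replicate 1 lay within the exposed group and above the exposed library of its own vial, and the log2 fold change was 0.26 (SE 0.06, adjusted p = 0.0336 by edgeR, exact two-sided permutation p = 0.0571).

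Steroidogenesis and several other functions of granulosa cells showed few calls. Of 21 steroidogenic genes, 0 were called by edgeR (7 with an unadjusted p under 0.05, 0 with DESeq2 on 16 libraries and 2 with the replicate block), and the median was 0.02. STAR, which carries cholesterol into mitochondria, was at 0.40 with an edgeR adjusted p of 0.097, and HSD17B4, the member with the most counts, at 0.02 with a standard error of 0.04. Cytokines and chemokines had 0 calls among 17 (5 with an unadjusted p under 0.05 and 1 with DESeq2 on 16 libraries), and NF-kappaB genes 0 among 15 (4 and 0). LIF and ICAM1 were at 0.17 and 0.10. Of 9 prostaglandin genes tested, only PTGES, a prostaglandin E synthase, was called, at −0.36 (11.1%, compared to 4.24% of all genes, and 2 genes with the replicate block). PPAR targets and fatty acid oxidation had 0 calls among 27 (8 with an unadjusted p under 0.05, 0 with DESeq2 on 16 libraries and 2 with the replicate block), with ACADVL at 0.00. Cholesterol efflux genes had 0 among 11 (3 and 0), with NPC2 at 0.11. Metallothioneins had 0 among 8 (1 and 0, and 1 with the replicate block), with MT2A at 0.08.

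Genes of proliferation were called singly: KIF11 among 32 genes of mitosis at 0.11, CDKN2B among 14 cyclins and inhibitors at 0.13, and MDM2 among 25 p53 targets at 0.15. Histones had 0 calls among 10 (3 with an unadjusted p under 0.05 and 0 with DESeq2 on 16 libraries), and cAMP phosphodiesterases and RGS proteins 0 among 26 (4 and 0, and 1 with the replicate block), with PRKAR1A at 0.09. Interferon-stimulated genes had IRF1 lower and IFIT1 higher among 38 (4 calls with the replicate block), at −0.23 and 0.26. Of 24 integrins and cadherins, ITGB5 and CDH13 were lower (5 calls with the replicate block), and of 21 YAP and TEAD targets, NUAK2 and CCN2 were higher. The YAP and TEAD targets had a median of −0.08, with 7 members higher and 14 lower. Their calls were 1, 1, 0 and 0 without replicates 1, 2, 3 and 4, and 0 with 32 libraries. IGFBP4 was the call among 15 IGF genes (3 with the replicate block), DKK3 among 24 WNT genes, CLK1 and PNISR among 33 RNA-binding proteins, DUSP1 among 17 MAP kinase feedback genes (3 with the replicate block), and FGF1 and CCN2 among 17 growth factors. In the lists of this paragraph with a call, the share called was 3.13 to 11.8%, compared to 4.24% of all genes.

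The 10 genes beyond 2-fold other than NR4A3 had a mean of 38.4 counts or fewer. ALB, AFP, AHSG and APOB, plasma proteins of the liver, had 0 counts in the control apart from 1 count of ALB, and 35 to 50, 16 to 30, 23 to 36 and 11 to 17 counts per exposed library. Set against a floor of 3 counts per library, they were at least 13.9-fold, 8.5-fold, 10-fold and 4.67-fold higher. These 4 genes passed the filter on low counts only through the groups in which they are high, so their calls say nothing of the other liver genes, of which most of the 24 listed were not tested. With DESeq2 on 16 libraries and with edgeR on 32, 1 of the 8 tested liver genes was called. APOA1 was called higher too, with 41 to 85 counts in control and 78 to 110 in exposed libraries. The part of liver transcripts in the other calls was not tested. LRG1, a secreted glycoprotein, had 1, 5, 4 and 1 counts and 10, 9, 8 and 8 counts, and FGF1, a fibroblast growth factor, 50, 42, 68 and 64 counts and 13, 26, 28 and 16 counts. PLEKHG4B, ZNF132, LOC105371206 and LOC105371216 had log2 fold changes of −1.71, 1.38, 1.60 and 1.47.

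The concentrations of 0.01 and 1 µM were compared to the same 4 control libraries as 0.1 µM. An error in these libraries moves the 3 changes alike, so a shared direction is no separate support. Against the control, 0 genes were called at 0.01 µM and 36 of 12836 (0.28%) at 1 µM. Of the 176 higher and 334 lower genes, 6 and 16 were called at 1 µM in the same direction. The 176 well-counted higher genes had a median log2 fold change of 0.09 at 0.01 µM and 0.13 at 1 µM, compared to 0.21 at 0.1 µM, which chose them. The 334 lower genes had medians of −0.07, −0.12 and −0.18 at 0.01, 1 and 0.1 µM. In cultures with 0.01 and 1 µM, HSPA8 averaged 1562 ± 49.2 and 1396 ± 90.6 CPM, SCD 586 ± 119 and 645 ± 92.3 CPM, and MT-CYTB 5151 ± 343 and 6486 ± 452 CPM (SD, n = 4). Tested directly without the control, 0.1 and 1 µM differed in 11 of 12836 genes (0.0857%), of which 7 were among the 334 lower genes and 0 among the 176 higher ones. ARID5B was at 131 ± 3.45 CPM in the control, 116 ± 2.88 at 0.01 µM, 105 ± 5.71 at 0.1 µM and 131 ± 3.30 at 1 µM (SD, n = 4), with a log2 difference of −0.32 between 0.1 and 1 µM (SE 0.04, adjusted p = 4.93e-05 by edgeR). HEYL was likewise lower at 0.1 than at 1 µM, at 35.5 ± 2.42 and 44.9 ± 3.67 CPM (edgeR adjusted p = 0.00496). TUFT1, AVPI1, C11orf96, ZNF331 and TSC22D1 were the other 5, with log2 differences of −0.30, −0.29, −0.54, −0.47 and −0.24. Between 0.1 and 0.01 µM, 35 genes differed (0.273%), 22 of them among the lower and 4 among the higher genes, including HSPA8, HSPA1B, DNAJB1 and MT-CYTB with edgeR adjusted p of 0.0421, 0.00207, 0.00422 and 0.0132.

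After 12 weeks the same cultures were measured in libraries that share no member with those of 6 weeks, and 136 of 12645 genes (1.08%) tested at both times were called at 0.1 µM. Of the 510 genes, 355 (69.6%) had the same direction at 12 weeks, compared to 54.6% of all well-counted genes, and 28 were called at both times, 26 of them in the same direction. The lower genes kept their direction in 241 of 334 cases (72.2%) and the higher genes in 114 of 176 (64.8%), while 52.6% of all well-counted genes had a negative and 47.4% a positive log2 fold change at 12 weeks, whatever their direction at 6 weeks. Across the well-counted genes, the log2 fold changes at the 2 times had r = 0.18, as a description of genes that share their vials and composition. TIPARP was at 187 ± 26.1 CPM in control and 102 ± 16.3 CPM in exposed libraries at 12 weeks, a log2 fold change of −0.88, CYP1B1 at 453 ± 89.1 and 284 ± 4.92 CPM and HK2 at 44.5 ± 6.95 and 30.6 ± 2.51 CPM (SD, n = 4), each called at both times. HSPA8 and DNAJB1 were at −0.23 and −0.18 and did not pass (edgeR adjusted p = 0.139 and 0.0555). SCD, FLNA and SLC7A5 were at −0.02, 0.04 and 0.04.

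A difference of the effect between the times was tested over all 32 libraries and found in 27 of 12988 genes (0.208%), 3 of them among the 176 higher and 3 among the 334 lower genes. ZFP36L1 went from 0.29 at 6 weeks to −0.29 at 12 weeks (edgeR adjusted p of the difference 0.000114), DUSP1 from 0.26 to −0.45 (0.00304) and WBP1 from 0.26 to −0.19. Among the lower genes, TUFT1 went from −0.18 to 0.14 and DDX51 from −0.16 to 0.17.

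**Figure D4:**
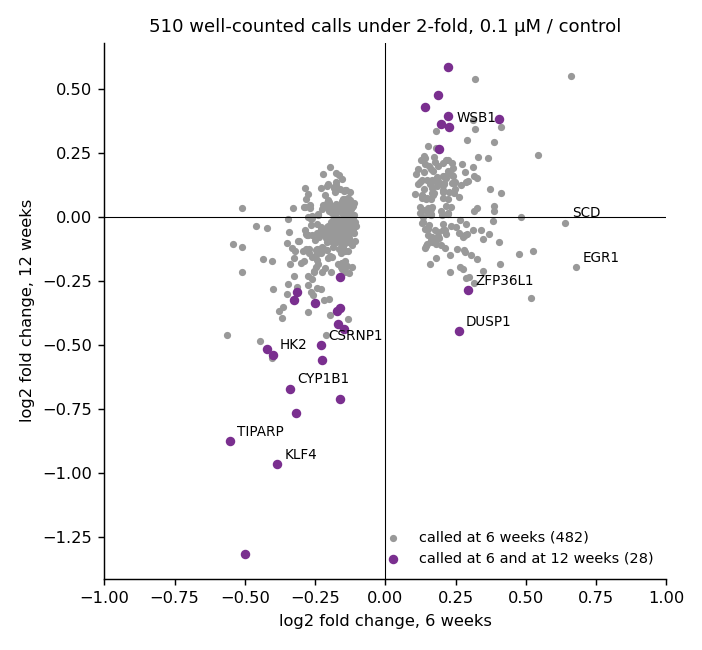
Log2 fold change of 0.1 µM PFOS to control at 6 weeks (horizontal axis) and 12 weeks (vertical axis) for the 510 well-counted genes called under 2-fold at 6 weeks, with the 28 also called at 12 weeks in purple. The gap around 0 on the horizontal axis comes from the choice of genes; TIPARP, CYP1B1, KLF4 and HK2 lie low in both, while ZFP36L1 and DUSP1 lie right of 0 and below it.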

How the data were processed

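RNA of HGrC1 cells had been sequenced by the authors from stranded poly(A) libraries on a DNBSEQ platform. Per the labels, reads were aligned to GRCh38.p14 with HISAT2 2.0.4 and Bowtie2 2.2.5, and RSEM 1.2.8 gave the expected counts per gene that the authors deposited without normalization. The authors also deposited TPM values, which were used for levels between genes only. Of 47137 gene entries, 18583 had values. FPKM and normalized counts were not used.

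Groups were taken from the labels. Expected counts were rounded to whole numbers and tested with edgeR 4.0.16 (TMM, filterByExpr, robust quasi-likelihood fit, two-sided, Benjamini-Hochberg adjustment at 0.05) in R 4.3.3, with the 16 libraries of 6 weeks in 1 fit and all 32 for the difference between times. Alternatives, among them DESeq2 1.42.0, other scalings and left-out libraries, are given at the end. Transcript length and GC content came from the longest coding transcript in GENCODE, matched by symbol for 99.5% of well-counted genes. Single genes were also tested by exact permutation of log2(CPM + 1). On simulated counts of 12791 genes, this fit recovered 45 of 50 genes changed by 1.25-fold and 50 of 50 changed by 1.5-fold, with 7 false calls. No change under 1.25-fold was simulated, whereas the well-counted calls under 2-fold had median changes of 15.8% and −11.5%. The changed genes averaged at least 100 counts, and libraries were drawn independently, without vial effects. The simulation therefore does not give the recovery or the false calls for the smaller changes in these vials. Chi-square per degree of freedom between replicates was 2.30 to 6.22 over 12 pairs, so none was a repeat of another. Standard errors of fold changes rest on a spread that each fit estimates over all its groups and moderates across genes. They are not the spread among the 4 vials of 1 group, and floors of 3 counts cover counting error only.

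Labels state that each vial's flask was divided into the 4 groups, so replicate numbers pair the samples. The correlation of deviations between same-numbered control and exposed libraries was 0.146, −0.0333, 0.0402 and 0.109. An alternative fit took the vial number as a replicate block.

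Genes were named by rule: the 12 per direction with the lowest p among well-counted calls under 2-fold without overlap, up to 4 called members per list, the 4 called genes per direction with the highest TPM, genes beyond 2-fold, and the member with the most counts where no member was called. Other called members of the lists described are given beside them, and some genes that the rule names are not reported here. The comparison, the 41 gene lists and the rule were chosen with earlier results of these data known.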

Additional observations from a re-analysis of the deposited data

Results flagged for a closer look

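Within the groups of 4, 7 of 212 groups examined (106 genes in control and in exposed libraries) held a library far from the other 3 by Dixon's test, which by chance flags about 1 in 20. PNISR was at 112 CPM in control replicate 1 against 105 or less in the others, and ICAM1 at 250.2 CPM in control replicate 2 against 237 or less. STARD4 was at 74.7 CPM in exposed replicate 4 against 71.8 or less, and ERN1 at 15.7 CPM in control replicate 4 against 18.4 or more. KRT18 was lowest in control replicate 2 (1957 CPM, next 2072) and in exposed replicate 1 (1803 CPM, next 1902). ALB was at 0.0555 CPM, which is 1 count, in control replicate 4 and at 0 in the other controls.

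The effect of 0.1 µM PFOS differed between 12 and 6 weeks in the following genes among the 106 (interaction over 32 libraries, edgeR adjusted p). ZFP36L1 (0.000114), DUSP1 (0.00304) and ALB (0.0386) were higher at 6 weeks and had negative log2 fold changes at 12 weeks, of −0.29, −0.45 and −1.10, the last one not called. ALB had 0 or 1 counts in each control library of 6 weeks. It passed the filter on low counts only through the groups in which it is high, so its value is no separate support for a difference between times.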

How the results depend on the processing

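With DESeq2 on 8 and on 16 libraries, 1 and 3 genes were at least 2-fold changed in place of 11, and with at least 10 counts in every library, 2. With all 32 libraries there were 49 calls in place of 544, 43 well-counted calls under 2-fold in place of 510, and 4 beyond 2-fold. The vial as replicate block gave 739 calls on 16 libraries and 821 on 8, and 41 in place of 27 differences between times. Among the named genes and the called list members, the block ended 6 actin calls and changed no other, while TPM4 and HMGCS1, named beside them, passed with it (adjusted p = 0.0482 and 0.0292). Leaving out a replicate or 1 library gave 22 to 617 calls, 17 to 577 well-counted calls and 5 to 13 genes beyond 2-fold. Beyond 1.1-fold, 14 genes passed in place of 5. HSD17B4, ACADVL, RPS2 and HIF1A, none of them called, changed sign without single libraries or replicates (log2 fold changes of −0.013 to 0.054, −0.017 to 0.032, −0.018 to 0.023 and −0.035 to 0.10). Of the other values for named genes, 1795 kept direction and side of the threshold, 693 lost the call and 4 gained it. Fewer samples enter the fits that leave some out; for the 32-library fit the cause of the lower count was not tested.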

Other observations

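Genes of the NOTCH pathway were looked at after their values had been seen. HEYL was given above, and JAG1, a NOTCH ligand, and NRARP, which dampens the signal, were called lower too, at −0.56 (SE 0.11, adjusted p = 0.00624 by edgeR) and −0.29 (SE 0.05, adjusted p = 0.0052 by edgeR) on the log2 scale. HES1, another NOTCH target, was called higher at 0.13 (edgeR adjusted p = 0.047), and the receptors NOTCH1, NOTCH2 and NOTCH3 were at −0.04, 0.01 and −0.04, with edgeR adjusted p of 0.767, 0.904 and 0.795. Called genes of this pathway thus moved in both directions.

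Among well-counted genes outside the lists, also named after their values had been seen, ELF3, an epithelial transcription factor, was higher by 0.66, ADORA1, an adenosine receptor, by 0.53, and SOCS3, a brake on cytokine signaling, by 0.48 on the log2 scale. SLC1A5, the glutamine transporter, was lower at −0.18 (edgeR adjusted p = 0.00978) beside SLC7A5 and SLC3A2. FKBP4, an HSP90 cochaperone of steroid receptors, was at −0.21 (edgeR adjusted p = 0.00484), and LMNA, the nuclear lamin A, at −0.18 (edgeR adjusted p = 0.00315).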
